A study of Mus musculus with 4 samples.

Results

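The genes described here are 36 axon guidance genes: 9 EphA and 5 EphB receptors, 5 ephrin-A and 3 ephrin-B ligands, 3 Robo receptors, 3 Slits, 2 netrins, and the 6 netrin receptors Dcc, Neo1 and Unc5a to Unc5d. They were taken by name from the 32285 genes counted in each library. All 36 were found, and they were followed over 4 sets of cells defined by the transcription factor transcripts the cells held. The libraries came from mouse cerebellum at E14.5 (counted in days of embryonic age). Cells carrying the red fluorescent protein tdTomato were sorted and read by droplet single-cell RNA sequencing of transcript 3′ ends. Both groups carried Atoh1-Cre/+ and the reporter R26LSL-tdT/+, so Cre is driven from Atoh1 and the sorted cells descend from cells that had expressed it. The control group had no further allele, and the conditional knockout (CKO) group was also En1lox/lox and En2lox/lox. There were 2 control and 2 CKO libraries, each from cerebella pooled before sorting in one of 2 replicate experiments, so a p-value measures the spread between these libraries and not between single embryos.

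Ephrins are membrane-bound ligands of the Eph receptor tyrosine kinases, and contact between cells carrying them usually repels or sorts growing axons and migrating cells. Slits are secreted repellents read by Robo receptors. Netrins are secreted proteins that attract through Dcc and repel through the Unc5 receptors. In the embryonic cerebellum these systems are known for guiding rhombic lip derivatives, the Atoh1 lineage that gives excitatory neurons of the cerebellar nuclei, granule cells and unipolar brush cells.

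Of 12546 kept cells (at least 500 genes and 1000 UMIs, unique molecular identifiers that each stand for a counted transcript, and at most 10% mitochondrial UMIs), the libraries held 2911 and 3931 (control) and 2007 and 3697 (CKO). The median depth was 2734 and 2122 UMIs per kept cell for control 1 and 2 and 5352 and 5544 for CKO 1 and 2, so depth and genotype moved together. Levels are given in CPM, the UMIs of a gene relative to all UMIs of the cells summed, on a fixed scale. Of the genes targeted in the CKO group, En2 stood at 136 and 167 CPM over all kept cells of control 1 and control 2. In CKO 1 and CKO 2 it stood at 29.0 and 19.8 CPM. For En1 the values were 238, 382, 150.2 and 253 CPM, and the groups overlapped. Whether the counted 3′ ends lie inside the deleted parts is not given in the sources used here. Between 1 and 6 kept barcodes were shared by any pair of libraries.

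Cells with more Pax6 than Meis2 UMIs numbered 1801 and 961 for control 1 and 2 and 1208 and 2978 for CKO 1 and 2. Cells with more Meis2 than Pax6 UMIs numbered 603 and 2322, and 573 and 372. Summed over 12 granule lineage markers (Pax6, which defines the set, among them), Pax6 > Meis2 cells held 4377 to 4713 CPM in every library. Summed over 12 markers of excitatory nuclei neurons (Meis2 among them), Meis2 > Pax6 cells held 3110.2 to 4111 CPM against 292 to 805 CPM in Pax6 > Meis2 cells. Meis2 > Pax6 cells also held granule lineage transcripts, at 2863 and 2607 CPM for control 1 and 2 and 3888 and 4033 CPM for CKO 1 and 2, so this marker sum was higher in both CKO libraries. Control 2 stood apart by its composition, with 59.1% of its cells in the Meis2 > Pax6 set against 10.1% to 28.6% in the other 3 libraries. Its Meis2 > Pax6 cells held 3516 CPM of erythroid transcripts against 4.50 to 53.4 CPM elsewhere. Counts were summed per library and set of cells, and a sum cannot tell a level per cell from a change in which cells a set holds.

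Cells with at least 1 Olig2 UMI (112 and 366 control cells, 138 and 143 CKO cells) and cells with a Tbr1 or Lmx1a UMI (144 and 511, and 264 and 148) overlapped the sets above in unequal shares. Of the Olig2 cells, 25.9% and 72.7% for control 1 and 2 and 47.1% and 17.5% for CKO 1 and 2 also had more Meis2 than Pax6 UMIs. A rule of at least 1 UMI depends on depth. Median UMIs per Olig2 cell were 4233.5 (control 1), 2605.5 (control 2), 13268 (CKO 1) and 14646 (CKO 2). Per Tbr1 or Lmx1a cell they were 3085, 2547, 5639.5 and 5264, in the same order. Both sets were thus deeper in each CKO library than in either control. The part of depth in which cells entered these sets was not tested. The oligodendrocyte marker Sox10 had no UMI in the Olig2 cells of any library, so the Olig2 set is called by its rule and not by a cell type.

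Of the 36 genes, 34 passed the low-count filter for testing in Pax6 > Meis2 cells, 32 in Meis2 > Pax6 cells, 29 in Olig2 cells and 25 in Tbr1 or Lmx1a cells. Epha1, which had no UMI in 7 of the 8 sums of Pax6 > Meis2 and Meis2 > Pax6 cells, and Epha2, at 0 to 0.504 CPM there, passed in none of the 4 sets. Epha8 and the ligand gene Efna1 did not pass in Meis2 > Pax6 cells. Among Olig2 cells Epha6, Epha10, Efna1, Slit3 and Unc5d did not pass, and among Tbr1 or Lmx1a cells these 5 and Epha8, Ephb3, Ephb6 and Slit1 did not. Levels are compared within a gene only, since UMIs counted at 3′ ends do not rank genes against each other. CPM of a cell set are relative to the UMIs of that set in its library. They are also scaled within each comparison, so a gene's value differs slightly between comparisons. Marker sums were not scaled in this way. Nor were the levels given for Olig2 cells with more Meis2 than Pax6 UMIs and for the reference cells beside them.

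**Figure D1:**
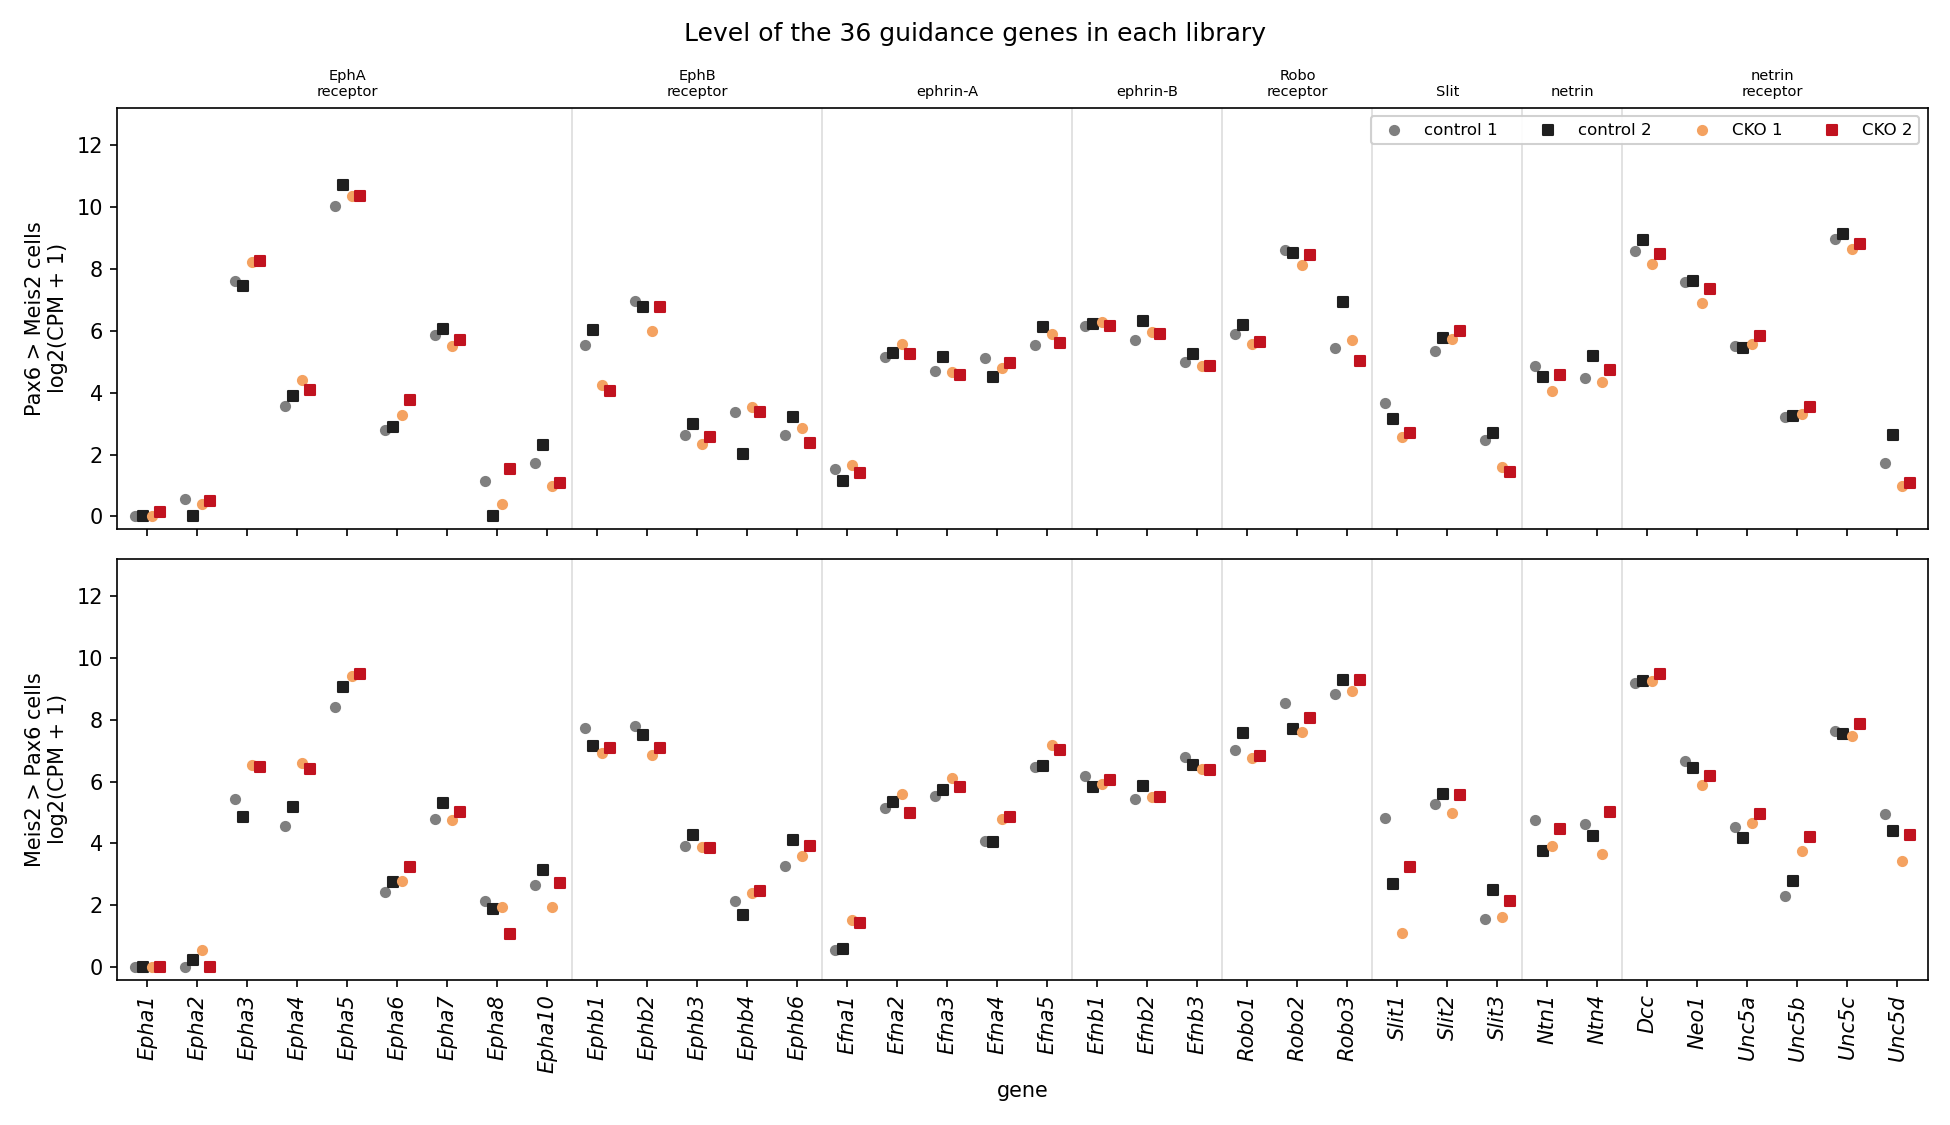
The level of each of the 36 genes on a log2(CPM + 1) axis, with Pax6 > Meis2 cells above and Meis2 > Pax6 cells below. Each point is 1 library (grey and black for control 1 and 2, orange and red for CKO 1 and 2). Robo3, Unc5d and Ephb1 sit higher in the lower panel in every library, and Epha3 and Unc5c sit higher in the upper panel.

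The first comparison asked how the guidance genes differ between Meis2 > Pax6 and Pax6 > Meis2 cells of the same library. Robo3, Unc5d, Ephb1 and Epha4 were higher in Meis2 > Pax6 cells, between 3.59-fold and 9.59-fold, and Epha3, Epha5 and Unc5c were higher in Pax6 > Meis2 cells, between 2.51-fold and 4.37-fold. Of the 34 genes tested, 27 passed an adjusted p of 0.05 (edgeR's quasi-likelihood F test with the library as a block, Benjamini-Hochberg adjustment over all genes), 14 higher and 13 lower. Of all 13146 genes tested, 51.8% were called, 25.4% higher and 26.4% lower. The median log2 fold change was -0.16 over the 34 genes and -0.00 over all genes. Whether the share of called members differed from that of all genes was not tested.

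Among Eph receptors, 4 of 5 EphB genes were higher in Meis2 > Pax6 cells and 1 was lower, while the EphA genes split 3 to 4 over 7 tested. Ephb1, a receptor for B-type ephrins known for steering retinal axons at the optic chiasm, stood at 204 and 137 CPM in the Meis2 > Pax6 cells of control 1 and 2 and at 118 and 132 CPM in those of CKO 1 and 2. The Pax6 > Meis2 cells of those libraries held 47.1, 64.8, 18.4 and 16.0 CPM. All 4 Meis2 > Pax6 values lay above all 4 others, and the log2 difference was 2.23 (SE 0.22, edgeR adjusted p = 2.78e-06). Epha4, a receptor that binds ephrins of both classes, stood at 22.2, 34.1, 93.3 and 81.9 CPM against 11.2, 14.3, 20.6 and 16.6 CPM, a log2 difference of 1.84 (SE 0.18, edgeR adjusted p = 2.48e-06). Within each library Epha4 was higher in Meis2 > Pax6 cells, and the gap was wider in both CKO libraries than in either control.

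Epha3, a receptor for ephrin-A ligands, had the opposite distribution. It stood at 41.2, 27.0, 89.7 and 85.2 CPM in Meis2 > Pax6 cells and at 197, 177, 305 and 309.9 CPM in Pax6 > Meis2 cells. The sets did not overlap, and the log2 difference was -2.13 (SE 0.14, edgeR adjusted p = 7.20e-08). Epha5, another ephrin-A receptor, stood at 329, 514, 659 and 694 CPM against 1074, 1698, 1326 and 1329.5 CPM (log2 -1.34, SE 0.14, edgeR adjusted p = 3.26e-06). Epha7, also of this class, was lower in Meis2 > Pax6 cells by 0.90 on the log2 scale (log2 -0.90), in all 4 libraries.

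Of the ephrins, the transmembrane ligand gene Efnb3 stood at 106, 88.7, 81.2 and 79.7 CPM in Meis2 > Pax6 cells against 31.6, 37.5, 28.6 and 28.5 CPM in Pax6 > Meis2 cells, a log2 difference of 1.50 (SE 0.10, edgeR adjusted p = 6.65e-08). Efnb2, another transmembrane ligand gene, differed the other way (log2 -0.49). The lipid-anchored ligands Efna3 (log2 1.02) and Efna5 (log2 0.96) were higher in Meis2 > Pax6 cells in all 4 libraries. Over the ephrin-A genes, 2 of 5 were called higher and 1 lower, and over the ephrin-B genes 1 of 3 higher and 2 lower.

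The Robo receptors also divided. Robo3, the divergent member of the family that lets commissural axons cross the midline, stood at 439 and 596 CPM in the Meis2 > Pax6 cells of the controls and at 471 and 612 CPM in those of the CKO libraries. The Pax6 > Meis2 cells held 43.3, 124, 52.4 and 32.2 CPM. The lowest Meis2 > Pax6 value was above the highest of the others, and the difference was 9.59-fold (log2 3.26, SE 0.23, edgeR adjusted p = 1.36e-07). Control 2, which had the highest Robo3 value among Pax6 > Meis2 cells, also held 191 CPM of Meis2 there against 38.2 to 76.2 CPM in the other libraries; the part of these cells in its Robo3 value was not tested. The Slit receptor Robo1 was higher in Meis2 > Pax6 cells (log2 1.17) and the Slit receptor Robo2 was lower (log2 -0.52). Of the ligands, Slit2 was called lower and Slit1 and Slit3 were not called.

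Netrin receptors showed a similar division, whereas the ligand genes Ntn1 (log2 -0.34, adjusted p = 0.0648) and Ntn4 (log2 -0.41, adjusted p = 0.0917) were not called. Unc5d, an Unc5 family member, stood at 29.3, 19.4, 9.61 and 18.1 CPM in Meis2 > Pax6 cells and at 2.35, 5.27, 0.998 and 1.16 CPM in Pax6 > Meis2 cells (log2 3.26, SE 0.29, edgeR adjusted p = 1.08e-06). Unc5c, the repulsive netrin receptor whose loss gives the rostral cerebellar malformation mouse, stood at 192, 181, 171 and 228 CPM against 505, 569, 405 and 460.4 CPM (log2 -1.33, SE 0.11, edgeR adjusted p = 4.17e-07). The Unc5d values of the sets did not overlap, nor did those of Unc5c, and the differences ran in opposite directions. Neogenin (Neo1, log2 -1.14), which binds netrins and repulsive guidance molecules, and Unc5a (log2 -1.10) were also lower in Meis2 > Pax6 cells in all 4 libraries. Dcc, the attractive netrin receptor, was higher (log2 0.68, edgeR adjusted p = 3.57e-04), and in the control libraries alone the difference was 0.40 (adjusted p = 0.169).

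**Figure D2:**
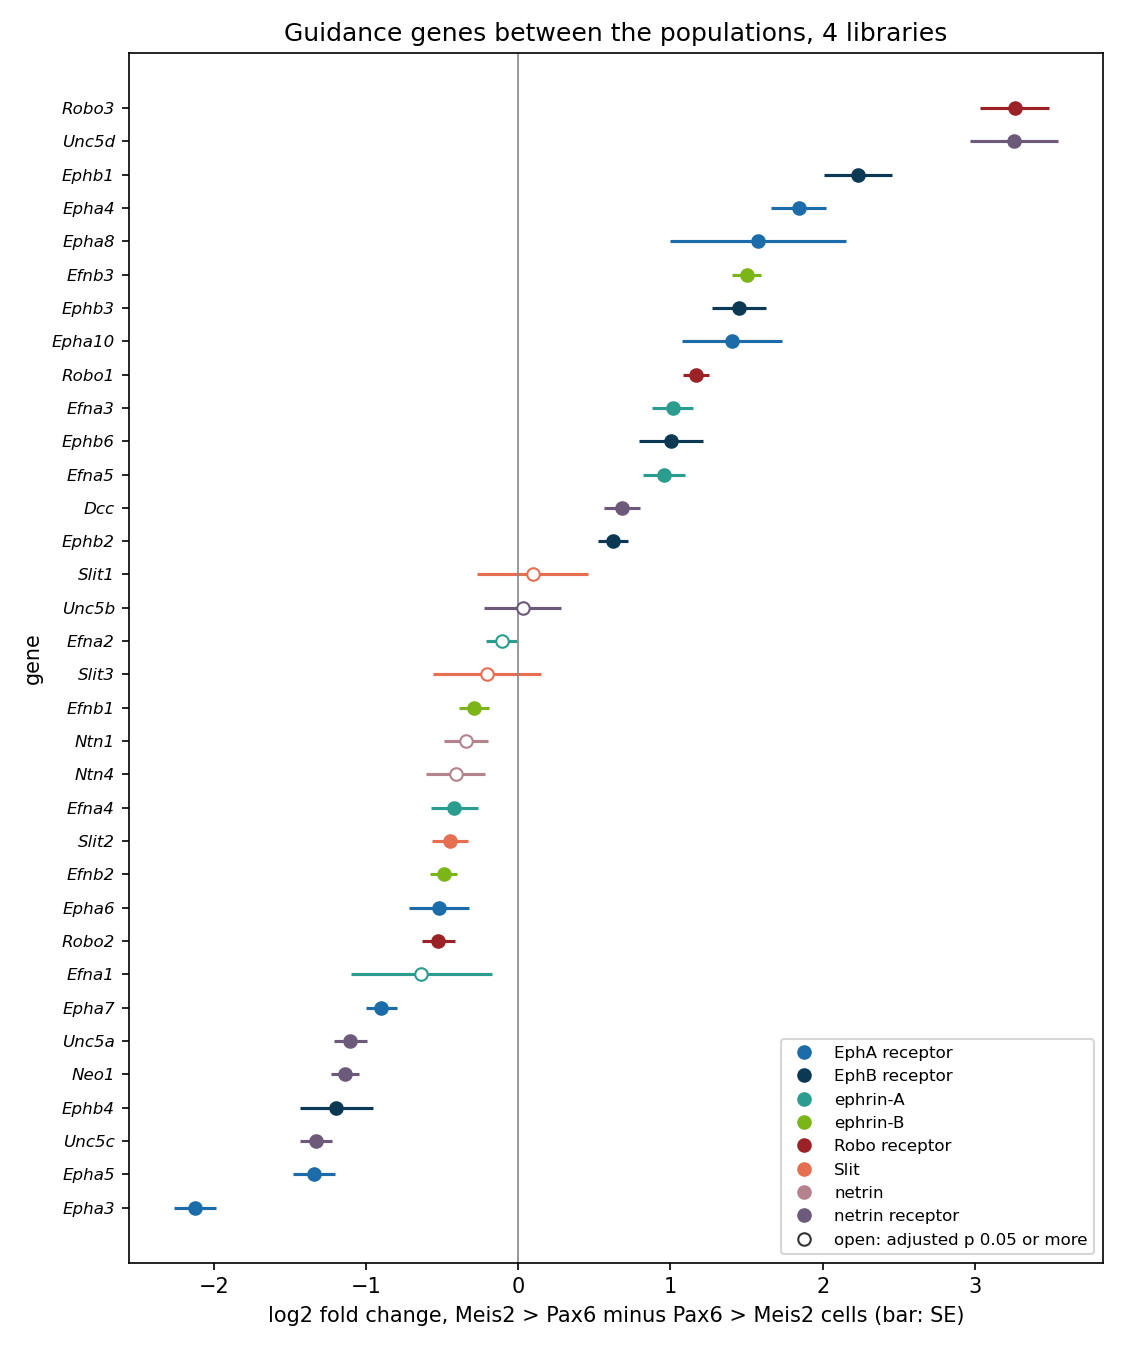
The log2 fold change of each of the 34 tested genes, Meis2 > Pax6 minus Pax6 > Meis2 cells over 4 libraries, with bars of 1 standard error and colours for the role of the gene. Filled points passed an adjusted p of 0.05. Robo3 (3.26) and Unc5d (3.26) lie at the top and Epha3 (-2.13) at the bottom.

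A list of 66 partner genes (other ligands, co-receptors and signalling proteins of these pathways) was counted beside them. Of 64 tested, 42 were called, where 51.8% of all genes were. Of these partners, 32 were higher in Meis2 > Pax6 cells (25.4% of all genes were) and 10 lower (26.4%). The higher genes included Nell2 (log2 2.08), a secreted ligand of Robo3, the repulsive guidance molecule gene Rgmb (2.03), the netrin-G gene Ntng1 (1.75) and the Unc5 and Robo partner gene Flrt3 (1.73). The lower genes included Dock1 (-2.17), an exchange factor for Rac that acts downstream of Dcc, and Nell1 (-1.90).

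The sequence before the transcription start is shown for the genes called between control and CKO cells (Epha4 and Ephb1) and for the gene with the largest difference between the cell sets (Robo3). It was taken from RefSeq on build GRCm38.p6. En1 and En2 are homeodomain proteins, and many proteins of that class bind TAATTA, so the windows were searched for TAATTA, for its core TAAT and for the E-box CANNTG that bHLH factors such as Atoh1 bind, all on both strands. TAATTA contains TAAT on both strands, so each TAATTA also counts as 2 matches of TAAT. Matches are in capitals. The Epha4 window covers chr1:77515089-77515338 and the Ephb1 window chr9:102354694-102354943, 250 bases each, and the Robo3 window covers the 179 bases of chr9:37433247-37433425. All 3 genes lie on the minus strand, and the sequences are written 5′ to 3′ on it.
Epha4: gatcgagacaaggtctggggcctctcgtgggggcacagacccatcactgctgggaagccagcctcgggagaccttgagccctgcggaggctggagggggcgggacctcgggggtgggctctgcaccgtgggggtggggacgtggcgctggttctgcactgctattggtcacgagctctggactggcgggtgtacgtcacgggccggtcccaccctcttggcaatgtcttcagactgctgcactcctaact
Ephb1: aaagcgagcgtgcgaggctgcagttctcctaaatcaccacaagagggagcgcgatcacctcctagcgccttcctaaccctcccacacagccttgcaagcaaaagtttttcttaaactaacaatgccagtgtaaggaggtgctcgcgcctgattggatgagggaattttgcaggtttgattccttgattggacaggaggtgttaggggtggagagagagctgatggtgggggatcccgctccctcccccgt
Robo3: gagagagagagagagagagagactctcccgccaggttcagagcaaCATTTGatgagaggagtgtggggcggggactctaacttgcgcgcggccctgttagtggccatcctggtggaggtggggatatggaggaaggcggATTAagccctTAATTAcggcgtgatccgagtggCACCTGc

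The Epha4 and Ephb1 windows held none of these motifs. The Robo3 window held 1 TAATTA, 3 matches of TAAT and 2 of CANNTG. Among windows of 250 bases before each start, 4.84% of 32544 promoters held TAATTA, 54.8% TAAT and 66.2% CANNTG. Of the 31 members with a promoter in the table, 3 held TAATTA in at least 1 window, 11 held TAAT and 13 held CANNTG. A match describes these letters and is not a binding site, and a window without one says nothing about a factor binding elsewhere. On GRCm38, Epha4 spans 77367185 to 77515088 of chromosome 1, Ephb1 101922128 to 102354693 and Robo3 37415669 to 37433246 of chromosome 9, and Epha3 63543534 to 63864175 of chromosome 16.

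The second comparison asked what differed between control and CKO cells of the same kind. In Pax6 > Meis2 cells Ephb1 was lower in both CKO libraries, by 1.69 on the log2 scale (log2 -1.69), and it was the single member called. In Meis2 > Pax6 cells Epha4 was higher in both, by 1.59 on the log2 scale, and it was the single member called there. No other member passed the test in these cells, and none passed in Olig2 or in Tbr1 or Lmx1a cells. Calls were rare over all genes too: 0.0574% of 13931 genes in Pax6 > Meis2 cells (0.0359% lower), 0.212% of 11804 in Meis2 > Pax6 cells (0.136% higher), 0.019% of 10524 in Olig2 cells and 0.00981% of 10196 in Tbr1 or Lmx1a cells (edgeR, adjusted p under 0.05).

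Ephb1 stood at 45.9 and 63.3 CPM in the Pax6 > Meis2 cells of the controls and at 18.0 and 15.6 CPM in those of the CKO libraries (log2 -1.69, SE 0.23, edgeR adjusted p = 0.0498). The groups did not overlap. The call sat at the threshold and was lost with another scaling (edgeR adjusted p = 0.0508) and with the replicate number as a block (0.408). It was lost in cells of at least 4000 UMIs (0.0992) and with a stricter rule for the cell sets (0.0595). It was also lost in cells thinned to 2000 UMIs (log2 -1.67, edgeR adjusted p = 0.0510), without control 2 (log2 -1.44) and without CKO 1 (log2 -1.79). Thinning, here and below, left out cells of fewer than 2000 UMIs and kept the cell sets of the unthinned counts. The cells of at least 4000 UMIs, here and below, also had at most 5% mitochondrial UMIs. The log2 difference of Ephb1 lay between -1.44 and -1.87 over the 14 alternatives. Ephb1 was higher in Meis2 > Pax6 cells, as given above, and 5 markers of medial nuclei neurons (Meis2 among them) summed in the same Pax6 > Meis2 cells to 713 and 981 CPM for control 1 and 2 and 514 and 521 CPM for CKO 1 and 2. The 8 GABAergic markers, of which 6 to 8 were detected, summed there to 41.1, 64.3, 10.0 and 20.5 CPM, also lower in both CKO libraries. The sums of the 12 markers of excitatory nuclei neurons overlapped between the groups in these cells. They were 374 and 805 CPM for control 1 and 2 and 403 and 292 CPM for CKO 1 and 2. Erythroid transcripts stood at 27.4, 1296, 910 and 2.84 CPM, high in 1 library of each group. The part of these in the Ephb1 difference was not tested.

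Epha4 stood at 22.8 and 35.1 CPM in the Meis2 > Pax6 cells of the controls and at 95.9 and 83.6 CPM in those of the CKO libraries (log2 1.59, SE 0.24, edgeR adjusted p = 0.0367). Both CKO libraries lay above both controls. The difference was 2.16 in cells thinned to 2000 UMIs (adjusted p = 0.0132) and 1.60 in cells outside the cell cycle (adjusted p = 0.0470). The call was lost with likely doublets left out (log2 1.50, adjusted p = 0.0615) and in cells of at least 4000 UMIs (log2 1.79, adjusted p = 0.103). The granule lineage marker sum was higher in the Meis2 > Pax6 cells of both CKO libraries, as given above; the part of these transcripts in the Epha4 difference was not tested.

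Epha3 stood at 42.3 and 27.8 CPM in the Meis2 > Pax6 cells of the controls and at 92.1 and 87.0 CPM in those of the CKO libraries. The groups did not overlap, but the difference missed the threshold (log2 1.39, SE 0.24, edgeR adjusted p = 0.0582). DESeq2 called it (adjusted p = 0.00256), and it was 0.79 (adjusted p = 0.478) in cells outside the cell cycle and 1.37 (adjusted p = 0.309) in thinned cells. Epha3 was high in Pax6 > Meis2 cells, and the granule lineage marker sum was higher in the Meis2 > Pax6 cells of both CKO libraries. The part of these transcripts in the Epha3 difference was not tested. In Pax6 > Meis2 cells Epha3 stood at 193 and 173 CPM for control 1 and 2 and 298 and 302 CPM for CKO 1 and 2 (log2 0.71, SE 0.23, edgeR adjusted p = 0.392), and Epha4 at 10.9 and 13.9 against 20.1 and 16.1 CPM (log2 0.57, edgeR adjusted p = 0.499). Both CKO libraries were above both controls for each gene, without a call.

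Of the other members with large differences, 1 library decided the value for Robo3 and Slit1. Robo3 stood at 42.2 and 121 CPM in the Pax6 > Meis2 cells of the controls and at 51.3 and 31.4 CPM in those of the CKO libraries (log2 -0.96, edgeR adjusted p = 0.499). The groups overlapped, and without control 2 the difference was -0.03. In Meis2 > Pax6 cells Robo3 stood at 451 and 614 against 484 and 624 CPM, a difference of 0.06. The secreted repellent gene Slit1 stood at 27.2 and 5.45 against 1.18 and 8.42 CPM in Meis2 > Pax6 cells (log2 -1.95, edgeR adjusted p = 0.343), and without control 1 the difference was -0.43. Unc5d stood at 30.1 and 19.9 against 9.87 and 18.5 CPM there (log2 -0.86, edgeR adjusted p = 0.312), lower in both CKO libraries than in either control.

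**Figure D3:**
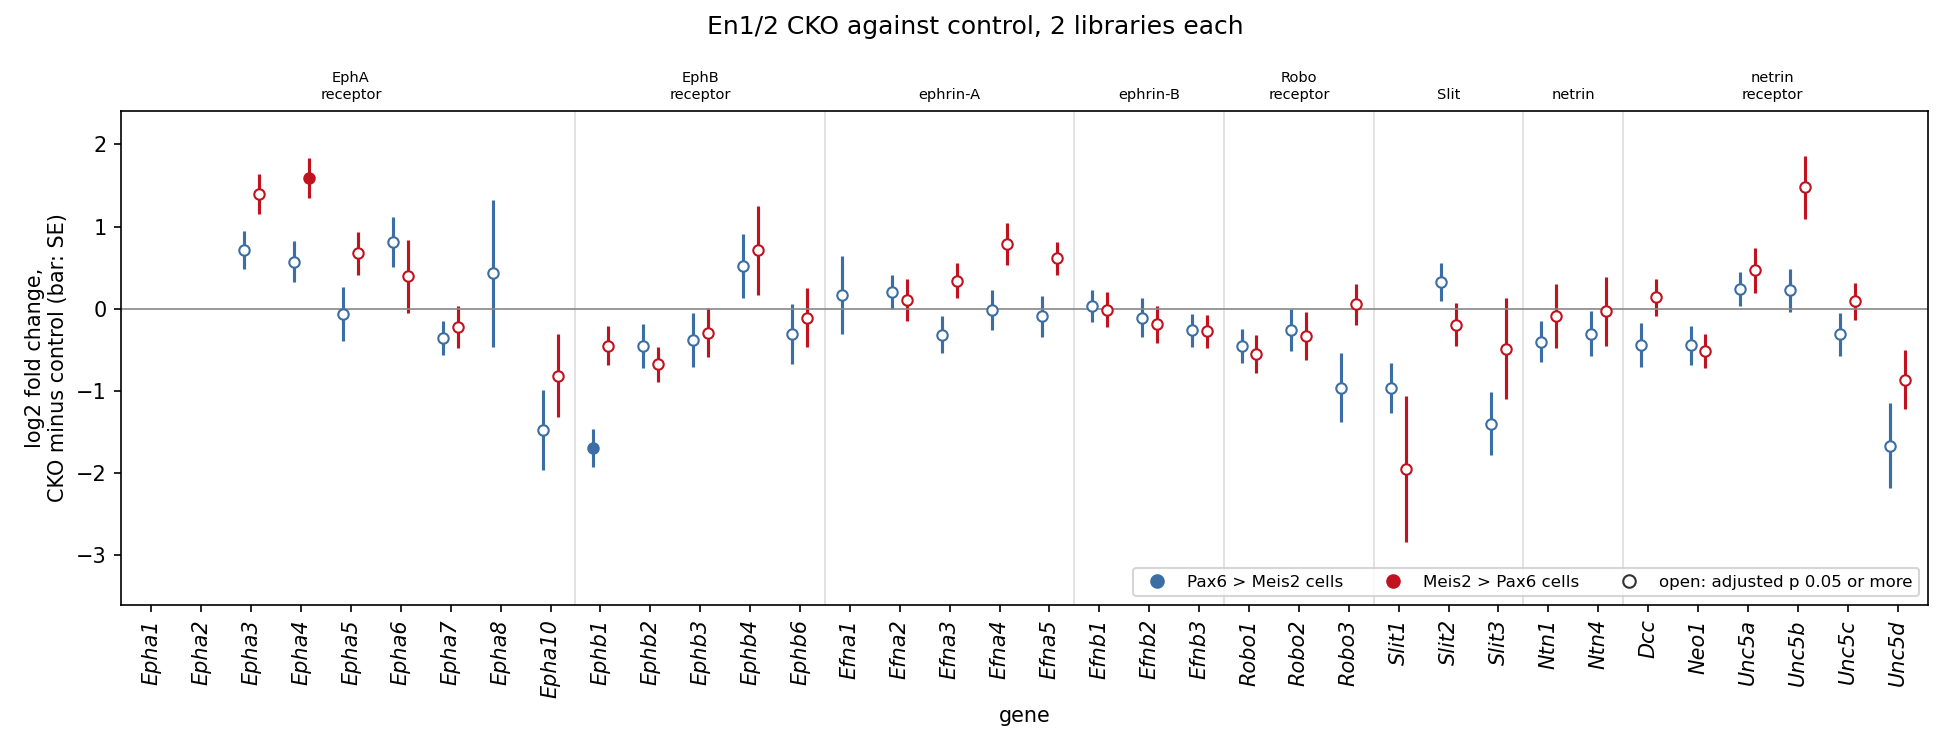
The log2 fold change of CKO against control for each tested gene, with bars of 1 standard error, in Pax6 > Meis2 cells (blue) and Meis2 > Pax6 cells (red). Filled points passed an adjusted p of 0.05, which only Ephb1 (-1.69, blue) and Epha4 (1.59, red) did.

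In Pax6 > Meis2 cells 6 of 34 members had both CKO values above both control values and 15 had both below, where 22.9% and 23.5% of all tested genes were. The 15 comprised Ephb1, Ephb2, Ephb3, Epha7, Epha10, Efna3, Efnb3, Robo1, Robo2, Slit1, Slit3, Dcc, Neo1, Unc5c and Unc5d. In Meis2 > Pax6 cells the counts were 10 higher (Epha3, Epha4, Epha5, Epha6, Ephb4, Efna3, Efna4, Efna5, Unc5a and Unc5b) and 7 lower (Ephb1, Ephb2, Ephb3, Efnb3, Robo1, Neo1 and Unc5d) of 32, where 22.0% and 22.6% of all genes were. The median log2 fold change of the members was -0.28 in Pax6 > Meis2 cells and -0.06 in Meis2 > Pax6 cells, and the median over all genes was -0.01 in both. In Pax6 > Meis2 cells the median over the members was -0.34 without control 1 and -0.07 without control 2. It was -0.15 without CKO 1, -0.34 without CKO 2, -0.27 in thinned cells and -0.05 in cells of at least 4000 UMIs. None of the 64 and 62 tested partner genes was called in either set of cells by edgeR. At an unadjusted edgeR p under 0.05 there were 13 and 9, where 9.82% and 14.7% of all genes were. DESeq2 called 0 and 1 partners, and 91 of 13931 and 174 of 11804 genes.

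Without adjustment, 9 members of 34 had an edgeR p under 0.05 in Pax6 > Meis2 cells, where 9.82% of all genes did, and 10 of 32 in Meis2 > Pax6 cells, where 14.7% did. The count was 2 of 29 in Olig2 cells (7.63% of all genes) and 2 of 25 in Tbr1 or Lmx1a cells (8.94%), and DESeq2 also called no member there.

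Whether Meis2 > Pax6 and Pax6 > Meis2 cells differed in their response was tested by an interaction term. None of the 34 members passed by edgeR, where 0.114% of 13146 genes did, and none by DESeq2. At an unadjusted p under 0.05 there were 11 members by edgeR, where 5.64% of all genes were, and 8 by DESeq2, where 1.89% were. Without control 1 edgeR called 8 members, and 3.14% of 13458 genes. The difference between the responses was 1.11 for Epha4 (SE 0.22, edgeR adjusted p = 0.111) and 1.23 for Ephb1 (SE 0.27, edgeR adjusted p = 0.168). So Epha4 was not shown to change in Meis2 > Pax6 cells alone, nor Ephb1 in Pax6 > Meis2 cells alone.

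The share of cells with a UMI was compared after thinning to 2000 UMIs, with shallower cells left out, and Wilson 95% intervals cover counting error only. The cell sets stayed those of the unthinned counts. Thinning kept 423 of 603 and 1322 of 2322 Meis2 > Pax6 cells in control 1 and 2. It kept 430 of 573 and 222 of 372 in CKO 1 and 2. Of Meis2 > Pax6 cells, 4.96% (3.27 to 7.47, of 423 cells) and 4.99% (3.94 to 6.30, of 1322) held an Epha4 UMI in the controls. In the CKO libraries 17.9% (14.6 to 21.8, of 430) and 15.3% (11.2 to 20.6, of 222) did. Unthinned, over all Meis2 > Pax6 cells, the Epha4 shares were 5.31% and 5.94% against 27.9% and 18.0%. The Epha4 share was higher in both CKO libraries than in either control, with and without thinning. The intervals do not measure the spread between libraries. Unthinned Meis2 > Pax6 cells held a median of 2617 and 2171.5 UMIs in control 1 and 2 and 3110 and 2248 in CKO 1 and 2.

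An Ephb1 UMI was present in 10.3% (8.75 to 12.0, of 1334) and 11.5% (9.11 to 14.3, of 576) of thinned Pax6 > Meis2 cells in the controls and in 3.64% (2.67 to 4.96, of 1043) and 3.23% (2.58 to 4.04, of 2259) in the CKO libraries. Unthinned, the Ephb1 shares were 18.8% and 16.1% against 16.6% and 10.7%, and the groups overlapped; the CKO cells were read more deeply, as given above. With 2 libraries a group an exact permutation test (two-sided) cannot give a p below 0.333, which both genes reached. Haemoglobin-rich cells, which should lack these transcripts, numbered 4, 11, 3 and 0 in the 4 libraries and held no Epha4, Epha3, Ephb1 or Robo3 UMI, too few to set a background from free RNA.

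**Figure D4:**
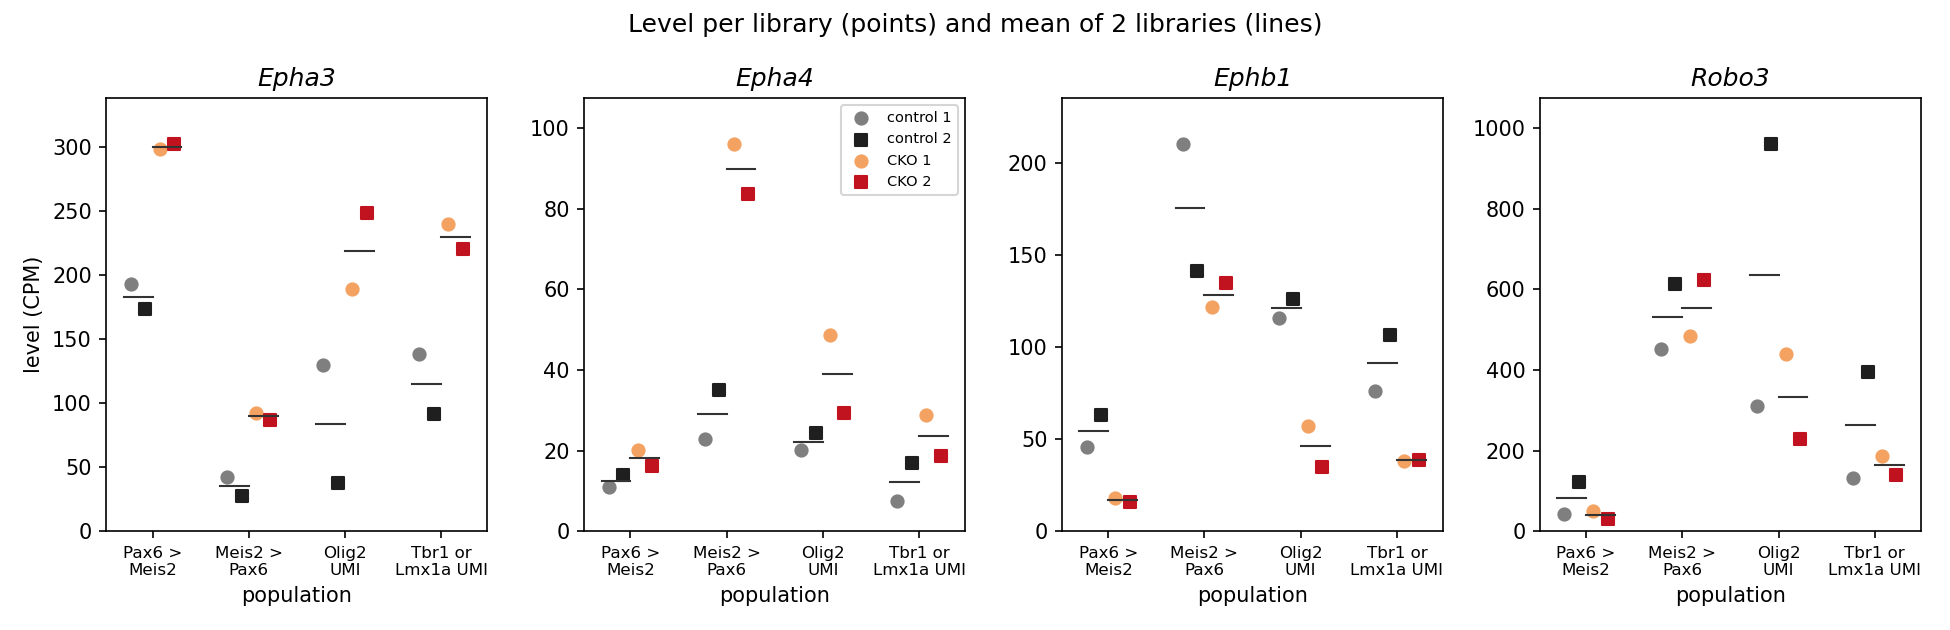
The level in CPM of Epha3, Epha4, Ephb1 and Robo3 in the 4 sets of cells, 1 point per library (grey and black for control 1 and 2, orange and red for CKO 1 and 2), with a line at the mean of each group. Epha3 and Epha4 are higher and Ephb1 lower in both CKO libraries in each of the 4 sets, which share cells, and Robo3 follows no such order.

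In Olig2 cells no member was called between control and CKO cells by edgeR or DESeq2, and without control 1 edgeR called 6, where 11.4% of 11463 genes were called. Epha3 stood at 129 and 37.2 CPM for control 1 and 2 and 189 and 248 CPM for CKO 1 and 2 (log2 1.40, edgeR adjusted p = 0.603), and Ephb1 at 116 and 126 against 57.3 and 35.0 CPM (log2 -1.39, edgeR adjusted p = 0.447). For both genes the groups did not overlap. Of 29 members, 8 were higher in both CKO libraries and 6 lower, near the 20.7% and 20.2% of all genes. Robo3 stood at 309.7 and 959.6 against 438 and 228 CPM (log2 -0.93, edgeR adjusted p = 0.687), and its difference turned to 0.11 without control 2. The Olig2 cells of control 2 also held 9640.3 CPM of erythroid transcripts against 1.26 to 18.4 CPM in the other libraries; the part of these in the differences was not tested.

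Since the libraries differed in how many Olig2 cells had more Meis2 than Pax6 UMIs, the comparison was repeated in those cells alone, a restriction chosen after seeing the data. Epha3 then stood at 15.0 and 14.9 CPM for control 1 and 2 and at 114 and 119 CPM for CKO 1 and 2, from 2, 13, 104 and 37 UMIs. The difference was 2.93 on the log2 scale (SE 0.40, edgeR adjusted p = 5.22e-05), the single member called of 21 where 4.56% of 7815 genes were called, 2.8% higher. It rests on 2 UMIs in control 1.

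In Tbr1 or Lmx1a cells Ephb1 stood at 76.2 and 107 CPM for control 1 and 2 and 38.1 and 38.7 CPM for CKO 1 and 2 (log2 -1.26, edgeR adjusted p = 0.347). Epha3 stood at 138 and 91.8 against 239.6 and 220.0 CPM (log2 1.01, edgeR adjusted p = 0.474), and Epha4 at 7.51 and 16.8 against 28.7 and 18.6 CPM (log2 0.92, edgeR adjusted p = 0.563). The groups did not overlap for any of these 3 genes. Without control 1, 5 members were called in Tbr1 or Lmx1a cells, where 4.25% of 10855 genes were. Control 2 held 4584 CPM of erythroid transcripts in these cells against 1.50 to 23.8 CPM elsewhere, and control 1 held 364 CPM of microglia and macrophage transcripts against 0.317 to 9.07 CPM. The granule lineage sum was 4139 and 3352 CPM in control 1 and 2 and 4520 and 4704 CPM in CKO 1 and 2, higher in both CKO libraries. The part of these in the differences was not tested. Over the 25 members tested, 3 were higher in both CKO libraries and 2 lower, where 21.9% and 20.8% of all genes were.

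The third comparison set Olig2 cells, and then Tbr1 or Lmx1a cells, against reference cells, the 530, 1789, 421 and 319 Meis2 > Pax6 cells of the 4 libraries that held no UMI of Olig2, Tbr1 or Lmx1a. Cells with a UMI of Olig2 and of Tbr1 or Lmx1a (9, 52, 21 and 5) were left out, so that 103, 314, 117 and 138 Olig2 cells and 135, 459, 243 and 143 Tbr1 or Lmx1a cells entered. In these Tbr1 or Lmx1a cells, 18 of 31 members were called, 7 higher and 11 lower, where 17.2% of 10969 genes were, 9.52% higher and 7.68% lower. In these Olig2 cells the counts were 6 higher and 6 lower of 31, where 21.7% of 11335 genes were called, 11.8% higher and 9.91% lower; without control 1, 5 of 31 members and 4.87% of 11384 genes were called. Both sets held many Pax6 > Meis2 cells (22.7% to 73.6% of Tbr1 or Lmx1a cells), whose levels of these genes differed from those of Meis2 > Pax6 cells as given above. Differences are therefore also given for the cells of each set with more Meis2 than Pax6 UMIs, again a choice made after seeing the data. This restricted comparison keeps cells with UMIs of both sets, so its cells are not wholly among those of the comparison above.

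In Tbr1 or Lmx1a cells, Epha4 stood at 8.15, 15.1, 26.5 and 19.5 CPM against 24.0, 39.4, 117 and 99.0 CPM in reference cells of the same libraries (log2 -1.98, SE 0.18, edgeR adjusted p = 1.82e-05). It was lower in all 4 libraries, and the difference was -1.43 (adjusted p = 6.71e-07) among Meis2 > Pax6 cells alone. Unc5c stood at 464, 494, 393 and 460.3 CPM against 179.7, 155, 131 and 218 CPM (log2 1.43, SE 0.13, edgeR adjusted p = 1.82e-05). Unc5c was higher in all 4 libraries, without overlap, and the difference was 1.18 (SE 0.10, adjusted p = 1.50e-13) among Meis2 > Pax6 cells alone. In that restricted comparison 10 of 28 members were called, where 3.58% of 10350 genes were, 2.2% higher and 1.38% lower. The 6 higher ones were Unc5c, Epha3 (0.90), Epha7 (0.81), Slit2 (0.76), Efna5 (0.63) and Epha5 (0.50), and the 4 lower ones Epha4, Efnb3 (-0.60), Robo1 (-0.45) and Dcc (-0.35).

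The other members named by the rule in Tbr1 or Lmx1a cells were Unc5d (-1.67), Robo3 (-1.50), Ephb1 (-1.31), Efnb3 (-1.13), Ephb3 (-1.11), Robo1 (-1.09) and Efna3 (-0.88) on the lower side and Epha3 (1.81), Epha5 (0.96), Neo1 (0.95), Epha7 (0.94), Slit2 (0.72) and Efnb2 (0.60) on the higher side. Robo3, Ephb1, Ephb3, Unc5d, Efna3, Neo1 and Efnb2 were not called among Meis2 > Pax6 cells alone. Of the EphB receptor genes 4 of 5 were called lower before the restriction, and none was called in the restricted comparison.

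Among the members named by the rule in Olig2 cells, the largest differences from reference cells were Unc5d (log2 -1.53), Epha4 (-1.09) and Efnb3 (-1.07) on the lower side and Epha3 (1.44) and Unc5a (1.08) on the higher side, with Ephb1, Ephb2 and Dcc also lower and Epha7, Unc5c, Epha5 and Neo1 also higher. Among Olig2 cells with more Meis2 than Pax6 UMIs, only Robo3 and Epha4 were called of 28 members, where 1.21% of 10310 genes were, 0.524% higher and 0.689% lower. Robo3 stood at 1234, 1145, 763 and 639 CPM in these cells against 433, 508, 400.4 and 647 CPM in reference cells (log2 0.95, SE 0.15, edgeR adjusted p = 1.49e-04). It was higher in both controls and in CKO 1 and not in CKO 2. Epha4 was lower (log2 -0.78, SE 0.19, edgeR adjusted p = 0.0314). Epha5 and Neo1, higher before the restriction, stood at -0.29 and -0.11 in the restricted comparison.

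**Figure D5:**
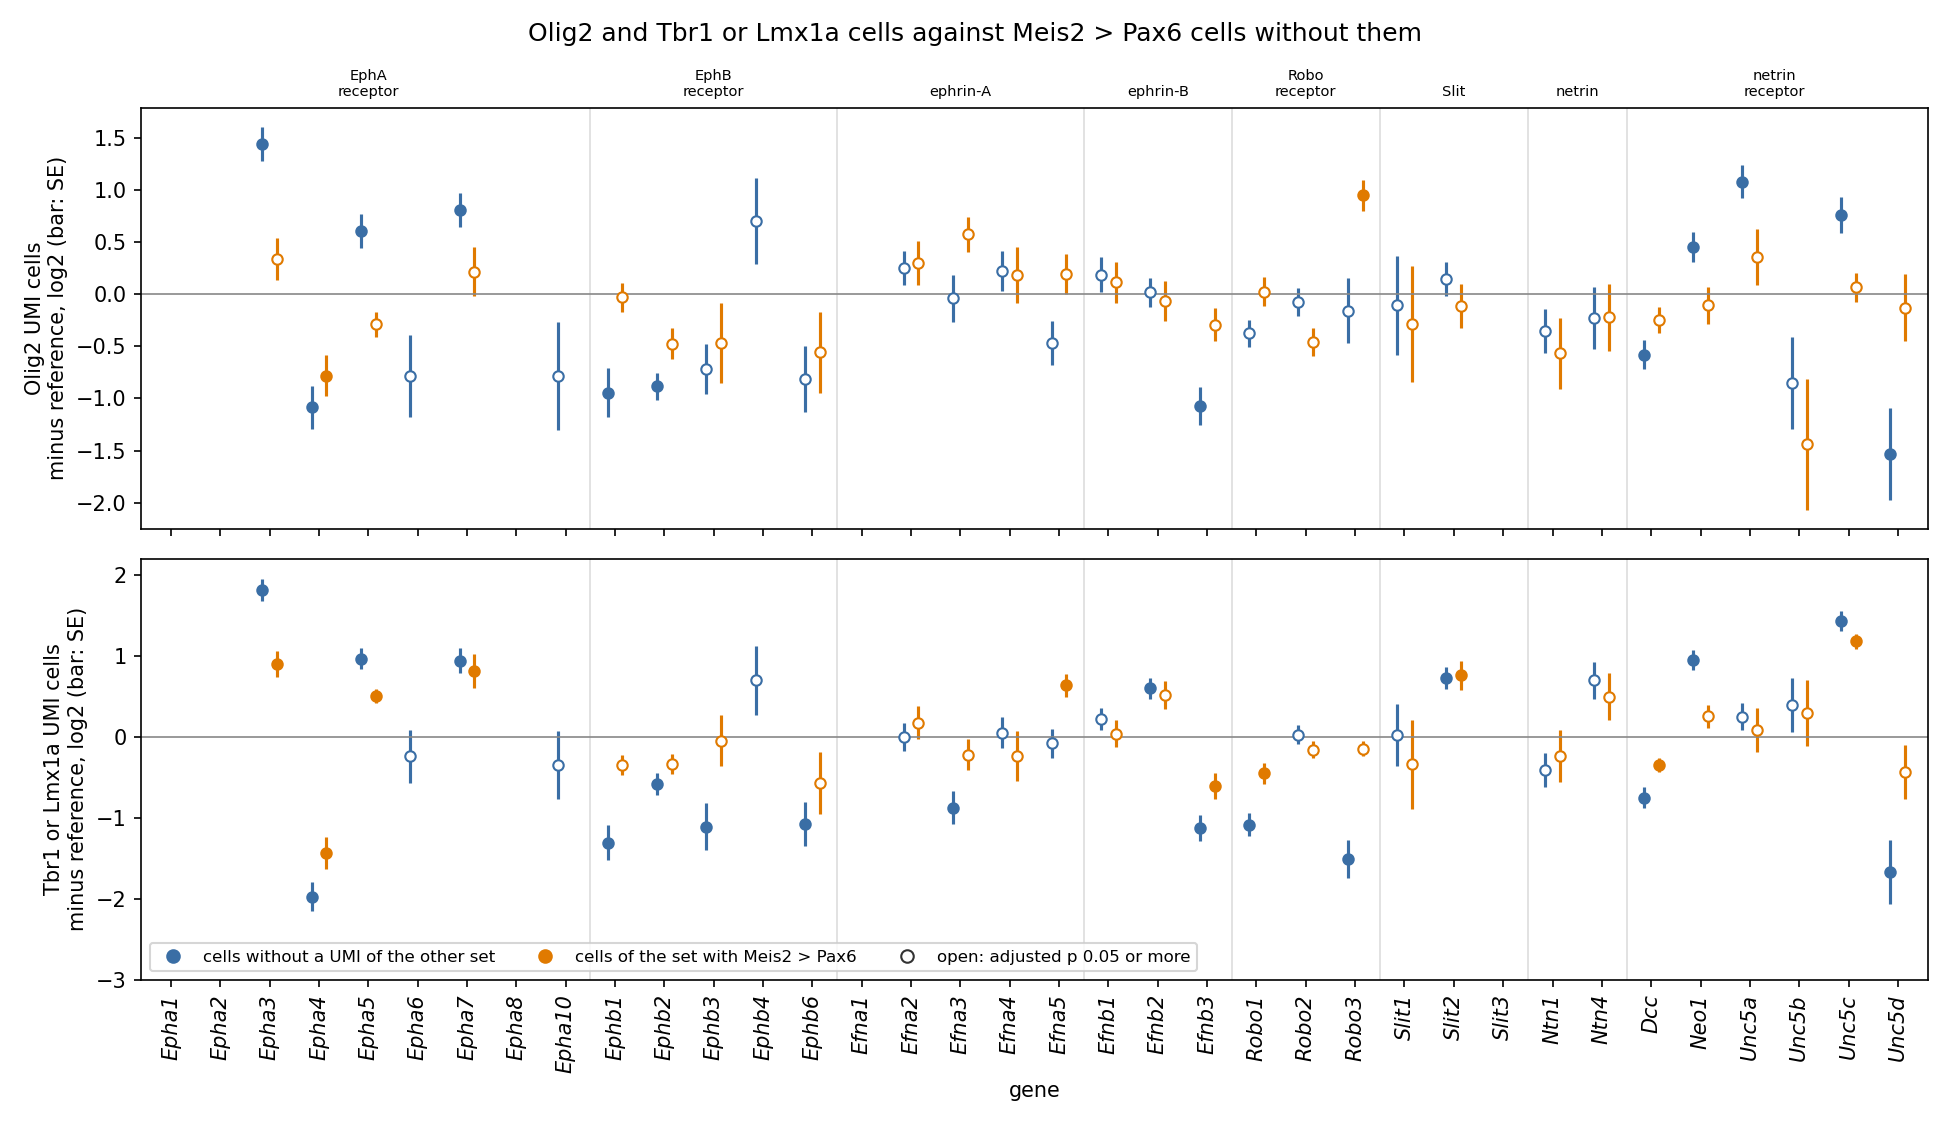
The log2 difference of each tested gene from reference cells, for Olig2 cells (upper panel) and Tbr1 or Lmx1a cells (lower panel), with bars of 1 standard error. Blue points take the cells of each set without a UMI of the other set, orange points take the cells of each set with more Meis2 than Pax6 UMIs, and filled points passed an adjusted p of 0.05. Unc5c (1.43 and 1.18) and Epha4 (-1.98 and -1.43) are filled in both colours in the lower panel, and Robo3 (0.95) is filled in orange alone in the upper panel.

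The last comparison set cycling Pax6 > Meis2 cells (at least 2 UMIs over 6 cell cycle genes) against the others of the same libraries. Of 34 members, 21 were called, 3 higher in cycling cells and 18 lower, where 51.1% of 12989 genes were called, 25.6% higher and 25.5% lower. Epha4 stood at 12.1, 24.5, 24.5 and 19.8 CPM in cycling cells against 9.69, 6.75, 9.82 and 11.4 CPM in the others (log2 0.92, SE 0.15, edgeR adjusted p = 2.03e-05). Unc5a (log2 0.42) and Slit2 (log2 0.24) were the other members higher in cycling cells. Epha4 was the largest of the 3 and higher in all 4 libraries.

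Robo3 stood at 24.5, 56.5, 42.6 and 26.3 CPM in cycling Pax6 > Meis2 cells against 64.6, 169, 70.6 and 38.5 CPM in the others (log2 -0.96, SE 0.11, edgeR adjusted p = 3.90e-07). Ephb1 stood at 33.5, 37.9, 15.1 and 12.9 CPM against 62.0, 82.0, 24.5 and 19.4 CPM (log2 -0.79, SE 0.09, edgeR adjusted p = 3.45e-07). Each was lower in cycling cells in all 4 libraries. Efna3 (-0.73), the laminin-binding netrin gene Ntn4 (-0.71), Epha5 (-0.52), Dcc (-0.48), Efna5 (-0.44) and Efnb1 (-0.43) were also lower. Among Pax6 > Meis2 cells, 35.9% and 32.2% were cycling in control 1 and 2. In CKO 1 and 2 the share was 53.6% and 42.5%, higher than in either control. Cycling cells were called on unthinned UMIs, and the median depth of this set was 3238 and 2339 UMIs in control 1 and 2. It was 13722.5 and 9818.5 UMIs in CKO 1 and 2, so depth and genotype cannot be told apart in this share. Without cycling cells the CKO difference of Ephb1 in Pax6 > Meis2 cells was -1.67 (edgeR adjusted p = 0.0473), against -1.69 with them.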

How the data were processed

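The deposited 10x matrices hold UMI counts per gene and barcode. Per the submitters' processing notes they were made with Cell Ranger 5.0.0 on mm10; how introns and strand were handled is not given in the sources used here, and gene positions were taken from GENCODE M21. The 4 libraries held 4983 to 7083 barcodes and 14998150 to 33709450 UMIs. Cells were kept by the cutoffs in the report; likely doublets were left in and removed in an alternative (0.8% per 1000 cells, simulated-doublet score). Counts were summed per library and cell set and tested with edgeR 4.0.16 (TMM, filterByExpr, quasi-likelihood F test, all groups of the comparison in 1 fit, Benjamini-Hochberg over all genes, threshold 0.05) in R 4.3.3. Between cell sets the library was a block. DESeq2 1.42.0 was the alternative tool. Tests were also run on counts simulated from these sums. For CKO against control, 26, 31, 8 and 20 of 100 changes of 2-fold were recovered. These values are for Pax6 > Meis2, Meis2 > Pax6, Olig2 and Tbr1 or Lmx1a cells, in that order. For changes of 4-fold the values were 98, 97, 79 and 84 of 100. Unchanged genes called numbered 6, 1, 1 and 7. Changes were placed only in genes with a mean count of at least 20. All genes shared a common dispersion, and all libraries had the same expected proportions apart from the changes. The simulation therefore does not cover members with fewer counts or the differing composition of control 2. Python 3.11.15 with scipy 1.17.1 made sums, thinning and permutation tests.

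The members and lists were chosen with earlier results of these data known. Genes given one by one were every called member and, for CKO against control, the 3 largest other differences at a mean of at least 10 CPM; between cell sets, up to 8 called members each way at that level; of the partners, up to 6 each way, of which some are not reported here. The labels do not say that a replicate number marks a shared experiment, so no pairing was used. Libraries of the same replicate number did not deviate together (correlation -0.310 to -0.0960 over genes). Promoters came from RefSeq for 31 members; Efnb3, Slit1, Dcc, Ntn1 and Unc5d were not matched.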

Additional observations from a re-analysis of the deposited data

How the results depend on the processing

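The number of members called between CKO and control cells in Pax6 > Meis2 cells (1) was 0 with RLE size factors, with the replicate block, in thinned cells, in cells of at least 4000 UMIs and with stricter cell sets, and 2 with no low-count filter. In Meis2 > Pax6 cells (1) it was 2 with DESeq2, 4 with no filter and 2 with the replicate block. It was 6 with the crossed pairing, 0 with likely doublets left out and 2 with stricter sets. It stayed 1 in cells of at least 4000 UMIs, where the member called was not Epha4. In Olig2 cells (0) it was 2 with the crossed pairing and 1 in Meis2 > Pax6 cells alone, and in Tbr1 or Lmx1a cells (0) it was 1 with no filter. The interaction (0) gave 2 members with no filter, 2 in thinned cells and 1 without cycling cells. With all libraries kept, alternatives over all genes gave 0 to 348 in Pax6 > Meis2 cells (8 in the main test) and 9 to 763 in Meis2 > Pax6 cells (25). They gave 0 to 449 in Olig2 cells (2), 0 to 256 in Tbr1 or Lmx1a cells (1) and 13 to 84 for the interaction (15). Against reference cells, Olig2 cells (12) gave 6 in thinned cells, 4 in control libraries and 2 in Meis2 > Pax6 cells alone. Over all genes the Olig2 count (2458 of 11335) was 667 of 7516, 382 of 10194 and 125 of 10310 in these settings. Tbr1 or Lmx1a cells (18) gave 9 in control libraries and 10 in Meis2 > Pax6 cells alone. Over all genes their count (1886 of 10969) was 448 of 10446 and 371 of 10350. The difference in the Ephb1 share of Pax6 > Meis2 cells was -5.89 percentage points at 1500 UMIs.

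Leaving out 1 library gave 0 to 1 members in Pax6 > Meis2 cells, 2 to 3 in Meis2 > Pax6 cells, 0 to 6 in Olig2 cells, 0 to 5 in Tbr1 or Lmx1a cells and 1 to 8 for the interaction. These comparisons of CKO and control then keep 1 library in a group, and their counts over all genes moved as well. Between cell sets, leaving out 1 library gave 23 to 26 for Meis2 > Pax6 against Pax6 > Meis2, 5 to 15 for Olig2, 14 to 18 for Tbr1 or Lmx1a and 18 to 21 for cycling cells. Over all genes the counts were 5556 to 7029, 554 to 3683, 769 to 3064 and 5523 to 6573, in that order. The 6 in Olig2 cells and the 5 in Tbr1 or Lmx1a cells came without control 1. Signs turned for Robo3 between CKO and control Olig2 cells (-1.51 to 0.11 with 1 library left out, 0.11 without control 2), and Epha5 (-0.29) and Neo1 (-0.11) between Olig2 and reference cells in Meis2 > Pax6 cells alone. Of 195 alternatives for 14 named CKO differences, 162 kept side and sign, 9 lost and 23 gained a call and 1 turned; of 636 for 54 differences between cell sets, 564 kept both, 70 lost the call and 2 turned. The cause was not tested.

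Over all genes, 8, 25, 2 and 1 were called between CKO and control in Pax6 > Meis2, Meis2 > Pax6, Olig2 and Tbr1 or Lmx1a cells, 91, 174, 21 and 17 by DESeq2, and 0, 58, 0 and 0 with the replicate block. Same-numbered libraries did not deviate together, which does not show whether they were made together. With the numbers crossed, chosen after seeing the data, 207, 763, 449 and 58 were called.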

Other observations

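Against reference cells, 19 of 61 partners were called in Olig2 cells, 3 higher (Dock1 1.69, Sipa1l1 0.86 and the phosphatase gene Acp1 0.43 on the log2 scale) and 16 lower (among them Ptpro -1.49, Flrt3 -1.12, the kinase gene Pak3 -1.08 and Rgmb -0.91). Of all genes, 21.7% were called in this comparison, 11.8% higher and 9.91% lower. In Tbr1 or Lmx1a cells, 14 of 61 partners were called, 3 higher (Dock1 1.61, Srgap2 1.02 and Sipa1l1 0.63) and 11 lower (among them Nell2 -1.51, Flrt3 -1.13, the Rac regulator gene Chn1 -1.10 and Ntng1 -1.07). Of all genes, 17.2% were called there, 9.52% higher and 7.68% lower. Srgap2 encodes a protein that binds Robo receptors and restrains Rac. In Meis2 > Pax6 cells alone the partner counts were 2 and 8 of 61, where 1.21% and 3.58% of all genes were called. In cycling against other Pax6 > Meis2 cells, 47 of 64 partners were called, 14 higher (among them Chn2 0.51, Acp1 0.45 and Nell2 0.39) and 33 lower (among them Ntn3 -1.29, Rgmb -1.07, Trim67 -0.98 and Dscam -0.96, a receptor gene that binds netrin). Of all genes, 51.1% were called in that comparison, 25.6% higher and 25.5% lower.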
